A study of Homo sapiens with 6 samples.

Results

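Expression of 10 genes of the ATF4 arm of the stress response and of the serine and folate enzymes it is known to control was followed in HepG2 cells over a day of plant treatment. The genes were ATF4, DDIT3, TRIB3, ASNS, CHAC1, SESN2, PSAT1, PHGDH, SHMT2 and MTHFD2. They were chosen by symbol: every non-control probe that the scanner files name for one of them was taken, on all 6 arrays. That gave 14 probes of 10 genes, out of 41000 probes and 17516 genes named on the array. HepG2 is a human hepatoma line, and the series asks how its expression moves with the time of exposure to Scutellaria baicalensis. The groups were cells exposed for 1, 3, 6, 12 and 24 h, and control cells for which the labels give no time. The treatment is written as ESB at 100 µg/ml in the protocol, taken here to be an extract of the plant named in the sample titles. With 1 array per group, differences at single times carry no p-value. All 5 comparisons share the control array, and a deviation of that array enters every one of them.

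ATF4 is a transcription factor whose protein is made when the initiation factor eIF2 alpha is phosphorylated, by kinases that sense amino acid shortage, unfolded protein in the endoplasmic reticulum, haem shortage or viral RNA. Most protein synthesis is then slowed, while short upstream reading frames let ATF4 itself be translated. Its known targets include stress regulators (DDIT3, TRIB3, CHAC1, SESN2), asparagine synthetase (ASNS) and the enzymes that make serine and pass its carbon to folate in mitochondria (PHGDH, PSAT1, SHMT2, MTHFD2). ATF4 activity is set largely by translation, and the arrays read RNA only.

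As background to the targets, the promoter windows of RefSeq (GRCh38.p14, 250 bases before to 50 after each gene's start) were searched for the letters of sites that ATF4 is known to use with its partners. An entry was found for 9 of the 10 genes. The core of the C/EBP-ATF response element, TGATGNAA on either strand, lies in 3.62% of the 35116 windows searched, and in those of ASNS and CHAC1 among these genes. The cyclic AMP response element TGACGTCA (1.85% of windows) and the joined form TGACGCAA (0.513%) are in none of the 9. Both matches are shown, written along the gene's own strand with the match in capitals. The ASNS window is chr7:97872444-97872501 on the minus strand, with the match from -68 to -61 relative to the start. The CHAC1 window is chr15:40953237-40953294 on the plus strand, with the match on the opposite strand from -209 to -202.
ASNS: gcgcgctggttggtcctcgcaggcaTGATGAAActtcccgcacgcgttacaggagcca
CHAC1: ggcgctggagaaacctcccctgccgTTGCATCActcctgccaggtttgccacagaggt

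ATF4, TRIB3 and SHMT2 each have a pair of probes, and their results turn on which one is read. The probes that stand for these genes below, the more upstream of each pair, are shown as the array's own 60-base designs, with no part singled out.
ATF4: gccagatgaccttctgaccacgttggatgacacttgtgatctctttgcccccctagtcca
TRIB3: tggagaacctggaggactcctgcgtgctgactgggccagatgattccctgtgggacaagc
SHMT2: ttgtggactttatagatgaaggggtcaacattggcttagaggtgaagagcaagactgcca

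The arrays differed widely in brightness. Every level below is divided by its array's 75th percentile of processed signal, which stood at 693 units for the control, then at 983, 1700, 139, 374 and 1460 units at 1, 3, 6, 12 and 24 h, a 12.2-fold range. Probes well above background made up 49.5% at 6 h and 64.4% at 12 h, against 69.8% on the control array. Spike-in spots, designed to read RNA added in a fixed amount, had a mean log2 signal of 5.88 at 6 h and 6.87 at 12 h, against 8.04 on the control array. After scaling, the median log2 difference of all measured genes was -0.05, -0.03, 0.34, 0.23 and 0.03 at 1, 3, 6, 12 and 24 h. The error attached to each log2 difference is the SD expected of any 1 probe, estimated from genes read by a pair of probes: 0.37, 0.47, 0.79, 0.69 and 0.70 at 1, 3, 6, 12 and 24 h. It holds no spread between cultures, labellings or arrays. All 9 markers of hepatocyte lines were well above background on every array. Of the markers of other cells, 1 to 4 of 5 for blood, 1 to 2 of 4 for endothelium and 0 to 3 of 5 for fibroblasts were well above background. Their summed levels were at most 3.80 times the 75th percentile, against 261 or more for the hepatocyte markers, sums in which 1 to 6 of the 9 hepatocyte probes were saturated. Fewer cells of a kind and less RNA per cell cannot be told apart in such samples.

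Among the 10 genes the responses were unlike one another. TRIB3, a pseudokinase that restrains AKT and ATF4 itself, was 5.56-fold above control at 24 h. DDIT3, which encodes the pro-apoptotic factor CHOP, was 3.44-fold and 3.51-fold above control at 12 and 24 h and near control before. MTHFD2, the mitochondrial methylene-tetrahydrofolate dehydrogenase, was 5.97-fold below control at 6 h and near it again at 24 h. ASNS, CHAC1, PSAT1 and PHGDH were within 2-fold of the control wherever they were measured at this scaling.

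**Figure D1:**
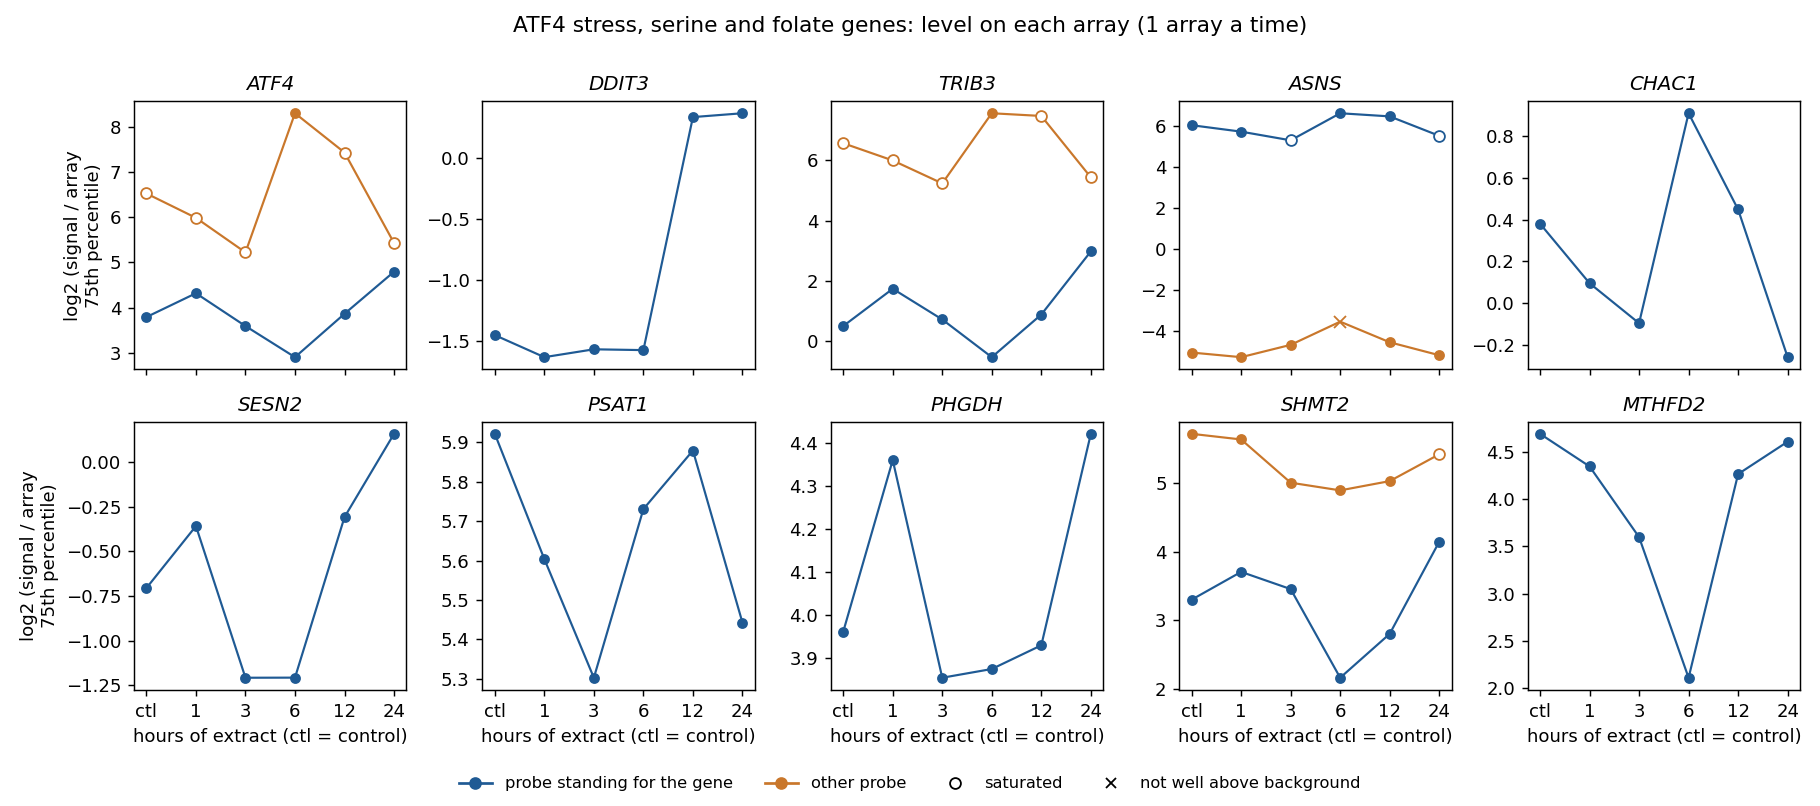
Level of each probe of the 10 genes on each array, as log2 of processed signal over the array's 75th percentile, against hours of extract, with the control (ctl) at the left. Each point is 1 array, blue for the probe standing for the gene and orange for any other, open where saturated and crossed where not well above background, and vertical scales differ between panels. DDIT3 is high at 12 and 24 h, TRIB3 at 24 h, and MTHFD2 is low at 6 h.

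ATF4 is the head of the pathway. The level of its unsaturated probe was 13.8 times the array's 75th percentile in the control and 19.9, 12.1, 7.48, 14.6 and 27.7 times at 1, 3, 6, 12 and 24 h. The 24 h array was the highest and the 6 h array the lowest, with the control in the middle of the order. In log2 differences from control, ATF4 stood at 0.53 ± 0.37, -0.20 ± 0.47, -0.89 ± 0.79, 0.07 ± 0.69 and 1.00 ± 0.70 at 1, 3, 6, 12 and 24 h. No step between neighbouring arrays in that order was larger than the SD between probes. The second ATF4 probe was saturated on 5 of the 6 arrays, all but that of 6 h, and so gives no difference.

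DDIT3 was dim but above background throughout. Its level was 0.366 times the 75th percentile in the control and 0.324, 0.338, 0.337, 1.26 and 1.29 times at 1, 3, 6, 12 and 24 h. The 12 h and 24 h arrays stood apart from the other 4, which lay close together. Its log2 differences were -0.18 ± 0.37, -0.12 ± 0.47 and -0.12 ± 0.79 at 1, 3 and 6 h. They were 1.78 ± 0.69 at 12 h and 1.81 ± 0.70 at 24 h. The gap between the 12 h array and the control was the only one in the order of its levels to exceed the SD between probes (1.78 against 0.69). At 12 h 98.7% of measured genes had a lower difference than DDIT3, and at 24 h 99.1%. It was represented by 1 probe.

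TRIB3 had the widest upward swing of the 10. Its unsaturated probe read 1.42 times the 75th percentile in the control and 3.34, 1.65, 0.693, 1.85 and 7.88 times at 1, 3, 6, 12 and 24 h. The level was high at 1 h, near control at 3 and 12 h, low at 6 h and highest at 24 h. The log2 differences were 1.24 ± 0.37, 0.22 ± 0.47, -1.03 ± 0.79, 0.38 ± 0.69 and 2.48 ± 0.70. Ordered by level, the steps between the 6 h array and control, between 12 h and 1 h, and between 1 h and 24 h exceeded the SD between probes. Among measured genes, 99.1% had a lower difference at 1 h and 99.9% at 24 h. The second TRIB3 probe was saturated on 5 arrays, all but that of 6 h.

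SESN2 encodes sestrin 2, a leucine sensor that holds back mTORC1. Its level was 0.613 times the 75th percentile in the control and 0.780, 0.433, 0.433, 0.808 and 1.12 times at 1, 3, 6, 12 and 24 h. The order was that of ATF4 in outline, lowest at 3 and 6 h and highest at 24 h. The log2 difference reached 0.86 ± 0.70 at 24 h, just short of 2-fold, and was -0.50 at 3 and at 6 h. None of its steps exceeded the SD between probes.

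CHAC1 breaks down glutathione and is a known downstream target of ATF4 and DDIT3. Its level was 1.30 times the 75th percentile in the control and 1.07, 0.935, 1.88, 1.36 and 0.836 times at 1, 3, 6, 12 and 24 h. It ran opposite to ATF4, highest at 6 h and lowest at 24 h. The log2 differences were 0.53 ± 0.79 at 6 h and -0.64 ± 0.70 at 24 h, both inside the SD between probes. Relative to the median of all measured genes they were 0.19 and -0.66. Of measured genes, 58.5% had a lower difference than CHAC1 at 6 h and 17.9% at 24 h. The step between the 12 h and 6 h arrays was larger than their SD (0.46 against 0.39).

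ASNS makes asparagine from aspartate and glutamine. Its bright probe read 65.4 times the 75th percentile in the control and 52.6, 97.8 and 88.0 times at 1, 6 and 12 h, and was saturated at 3 and 24 h. Of the arrays that measured it, 6 h was the highest and 1 h the lowest. Its log2 differences were -0.31 ± 0.37, 0.58 ± 0.79 and 0.43 ± 0.69 at 1, 6 and 12 h. Relative to the median of all measured genes they were -0.26, 0.24 and 0.20. The sign at 6 and 12 h depends on the scaling: quantile normalization gave -0.26 and -0.15, and cyclic loess -0.49 and -0.29. A second, dim probe named for ASNS was -0.23, 0.37, 0.50 and -0.13 from control at 1, 3, 12 and 24 h on the log2 scale, and was not well above background at 6 h. Neither probe showed a 2-fold difference on an array that measured it.

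PHGDH and PSAT1 carry out the first steps of serine synthesis from a glycolytic intermediate. PHGDH read 15.6 times the 75th percentile in the control and 20.5, 14.5, 14.7, 15.2 and 21.4 times at 1, 3, 6, 12 and 24 h. It was highest at 24 h and 1 h, with the other 4 arrays close together. Its log2 differences lay between -0.11 and 0.46, and the step between the 1 h array and control barely exceeded the SD between probes (0.40 against 0.37). PSAT1 read 60.6 times the 75th percentile in the control and 48.6, 39.5, 53.1, 58.9 and 43.5 times at 1, 3, 6, 12 and 24 h. With the arrays scaled to the 75th percentile every treated array was below the control, by -0.62 ± 0.47 at 3 h and by -0.04 ± 0.69 at 12 h on the log2 scale. Quantile normalization turned the sign at 3 and 24 h, to 0.38 and 0.31, and cyclic loess gave -1.20 at 6 h in place of -0.19. The 2 lowest PSAT1 levels came from arrays on which 26.6% (3 h) and 25.8% (24 h) of its spot's pixels were saturated, short of the scanner software's flag. The part of this in the result was not tested.

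SHMT2, the mitochondrial hydroxymethyltransferase, moves a carbon of serine to folate. Its unsaturated probe read 9.83 times the 75th percentile in the control and 13.0, 10.9, 4.46, 6.96 and 17.7 times at 1, 3, 6, 12 and 24 h. It was lowest at 6 h and highest at 24 h, as ATF4 was. The log2 differences were 0.41 ± 0.37, 0.15 ± 0.47, -1.14 ± 0.79, -0.50 ± 0.69 and 0.85 ± 0.70. The other SHMT2 probe was below control at every time that measured it, at -0.08, -0.71, -0.83 and -0.69 at 1, 3, 6 and 12 h, and was saturated at 24 h. The 2 probes therefore shared a direction at 6 and 12 h and not at 1 and 3 h. On the 1 h and 3 h arrays 1.5% and 11.3% of the other probe's pixels were saturated, short of the flag. The part of this in the disagreement was not tested.

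MTHFD2 takes the carbon that SHMT2 passes on and oxidises it. Its level was 25.8 times the 75th percentile in the control and 20.3, 12.1, 4.32, 19.2 and 24.4 times at 1, 3, 6, 12 and 24 h. It was below control at 1 and 3 h and lowest on the single array at 6 h, with 12 and 24 h near the control. The log2 differences were -0.34 ± 0.37, -1.09 ± 0.47, -2.58 ± 0.79, -0.43 ± 0.69 and -0.08 ± 0.70. The step between the 6 h and 3 h arrays exceeded the SD between probes (1.49 against 0.86). Of measured genes, 2.30% had a lower difference at 3 h and 0.88% at 6 h. The low value rests on the dimmest array, on which its processed signal was 601 units, against 17900 units on the control array, and on 1 probe.

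**Figure D2:**
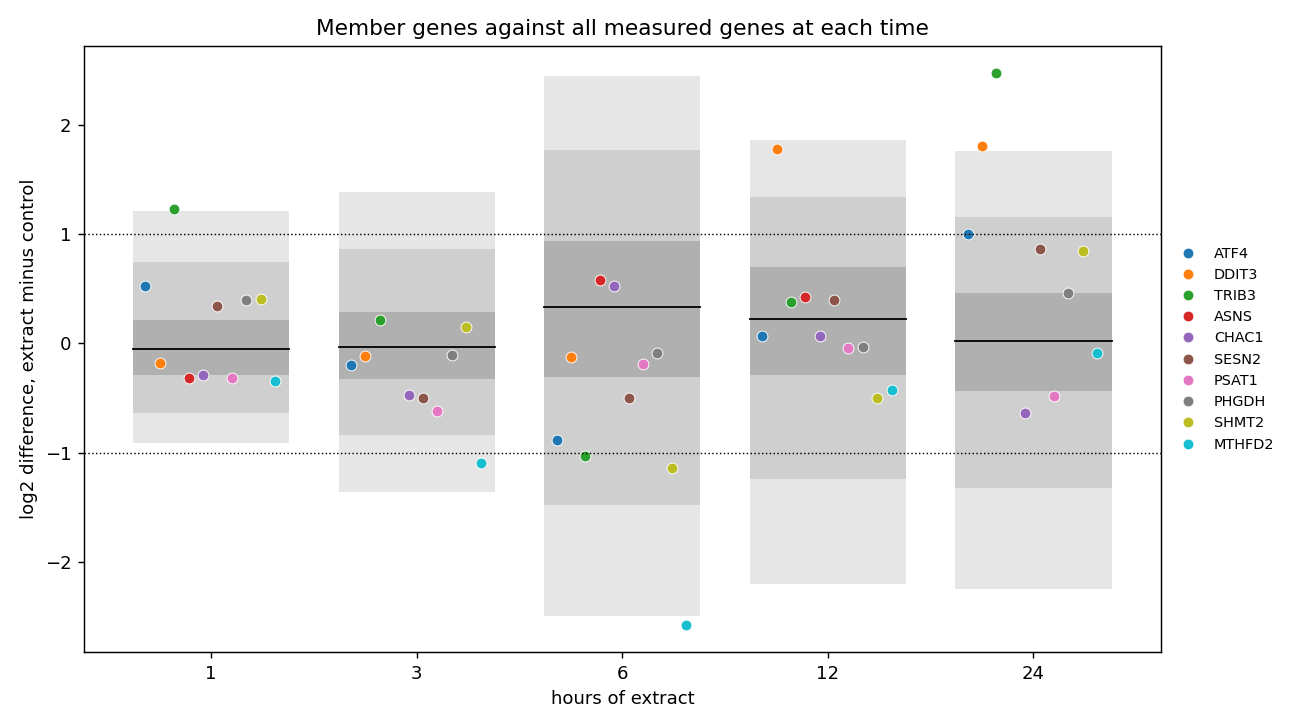
Log2 difference of each of the 10 genes from control (coloured points) at 1, 3, 6, 12 and 24 h of extract, over the spread of all measured genes at that time. TRIB3 at 1 and 24 h and DDIT3 at 12 and 24 h lie near the upper end of all genes, and MTHFD2 at 3 and 6 h near the lower end.

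Counted at a 2-fold difference, the 10 genes were set against all genes measured on both arrays. At 1 h 1 of 10 was higher (TRIB3) and 0 lower, where 2.3% of 13190 genes were higher and 0.66% lower. At 3 h 0 of 9 were higher and 1 lower (MTHFD2), where 3.3% of 13169 genes were higher and 2.95% lower. At each of these times the count was a single gene. At 6 h 0 of 10 were higher and 3 lower (MTHFD2, SHMT2 and TRIB3), where 22.7% of 10713 genes were higher and 10.1% lower. At 12 h 1 of 10 was higher (DDIT3) and 0 lower, where 13.0% of 12591 genes were higher and 7.74% lower, so the count is near the background. At 24 h 3 of 9 were higher (TRIB3, DDIT3 and ATF4) and 0 lower, where 7.4% of 13145 genes were higher and 9.27% lower. ATF4 lay just inside the 2-fold line there, and SESN2 (0.86) and SHMT2 (0.85) just outside it. Scaled to probes well above background on all arrays, ATF4 too was outside it and the count was 2. The median log2 difference of the genes measured was 0.08, -0.20, -0.35, 0.07 and 0.85 at 1, 3, 6, 12 and 24 h. Relative to the median of all measured genes it was 0.14, -0.16, -0.68, -0.16 and 0.82. Directions at 3 and 24 h also depend on the scaling: with the arrays scaled to the spike-in spots the median of all genes shifts by 1.08 at 3 h and 1.24 at 24 h, and every difference with it. MTHFD2 is then at -0.01 at 3 h, CHAC1 at 0.60 and PSAT1 at 0.76 at 24 h, and values relative to the median of all genes are as before.

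A trend over the 6 arrays, with the control placed at 0 h by assumption, was tested as a slope on log2(hours + 1) with limma over 13611 genes. No gene passed an adjusted p of 0.05 (0.0% called), while 3.95% had a rising and 5.96% a falling slope at an unadjusted p under 0.05. DDIT3 had a fitted change of 2.13 ± 0.67 (SE) on the log2 scale between 0 and 24 h, with an unadjusted p of 0.0137 and limma's adjusted p of 0.394. Without the dim 6 h and 12 h arrays it was 1.98, with limma's adjusted p of 0.045, in a fit that called 639 genes. Leaving out any single array gave fitted changes between 1.75 (without 12 h) and 3.02 (without the control), with limma's adjusted p between 0.132 and 0.92. The other 9 genes had fitted changes between -0.51 and 0.63 and none passed at the unadjusted level. In that fit a gene is read by its brightest probe, saturated on 5 arrays for ATF4, 5 for TRIB3, 2 for ASNS and 1 for SHMT2. With the unsaturated probe, a choice made after seeing the data, the fitted changes were 1.24 ± 1.12 for TRIB3 and 0.42 ± 0.70 for ATF4, with limma's adjusted p of 0.704 and 0.832.

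The 10 genes did not share one profile. Over the 45 pairs the Pearson r across the 6 arrays had a median of 0.31, with 11 pairs at 0.8 or above and 17 below 0. ATF4 was most like TRIB3 (r = 0.98), SESN2 (0.90) and SHMT2 (0.90), with PHGDH at 0.87 and MTHFD2 at 0.83. ASNS and CHAC1 had r = 0.93 with each other and -0.58 and -0.80 with ATF4. The lowest pair was CHAC1 with SHMT2 (-0.95), while ASNS with SESN2 was at -0.18. PSAT1 had 0.81 with ASNS, -0.28 with ATF4 and 0.08 with MTHFD2. DDIT3 was most like SESN2, at 0.75, and had 0.54 with ATF4. These values describe 6 arrays that share the array differences in brightness, and saturated ASNS readings enter its values. PSAT1 had saturated pixels on the same arrays as ASNS, those of 3 and 24 h. The part of saturation in the r of PSAT1 with ASNS was not tested. ATF4, TRIB3 and SHMT2 are each read by the upstream probe of a pair. The part of probe position in their r values was not tested. The median profile of the 9 genes measured on all arrays, each centred on its own mean, was -0.09 in the control and 0.29, -0.34, -0.65, 0.20 and 0.76 at 1, 3, 6, 12 and 24 h. Of 6593 other genes with a log2 range of at least 1, LIX1L (r = 0.993), SIPA1 (0.993), PI4KB (0.981), EPPK1 (0.966) and PI4K2A (0.961) were most like it over the 6 arrays.

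The place of a probe along its gene moved with the same arrays. For genes with probes 200 to 5000 bases apart, the log2 difference of the upstream probe minus that of the downstream probe had a median of 0.23, 0.27, -0.20, -0.10 and 0.36 at 1, 3, 6, 12 and 24 h. The upstream probe was the higher in 70.7%, 69.2%, 42.4%, 45.3% and 70.0% of 2282, 2246, 1433, 2059 and 2232 pairs. Upstream probes were thus the higher at 1, 3 and 24 h and the lower at 6 and 12 h in most pairs. The probes that stand for ATF4, TRIB3 and SHMT2 are the upstream ones, by 702, 1251 and 508 bases. For SHMT2 the same quantity was 0.49, 0.87, -0.31 and 0.19 at 1, 3, 6 and 12 h. Saturated pixels of the downstream SHMT2 probe enter the values at 1 and 3 h. For ATF4 and TRIB3 the quantity has no value, because the downstream probes were saturated. The part of probe position in the high values at 1 and 24 h and the low values at 6 h of these 3 genes was not tested.

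**Figure D3:**
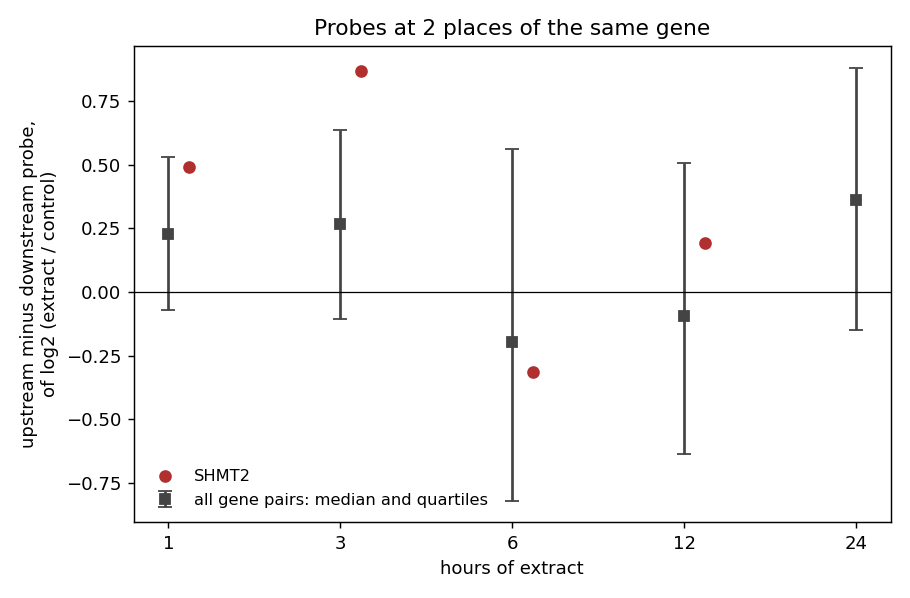
Log2 difference from control of the upstream probe minus that of the downstream probe of the same gene, against hours of extract. Squares and bars are the median and quartiles over all gene pairs and red points are SHMT2, and the medians are above 0 at 1, 3 and 24 h and below it at 6 and 12 h. The SHMT2 points at 1 and 3 h rest on a downstream probe with some saturated pixels.

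In the gene lists that follow, every value given for a gene is a log2 difference from control, with the errors of each time as above. Upstream of ATF4, the eIF2 alpha kinases and the phosphatase that reverses them had no common direction. Of 10 measured genes at 3 h, 1 was at least 2-fold higher and 1 lower, beside 3.3% and 2.95% of all genes, and both counts were 0 with the authors' deposited values and with normexp background. Of 9 at 6 h 1 was higher and 3 lower, beside 22.7% and 10.1% of all genes, with a median of -0.65. EIF2AK4, the kinase GCN2 that senses uncharged transfer RNA, had log2 differences of 0.38, 0.37, -2.32, -1.52 and -0.82 at 1, 3, 6, 12 and 24 h. EIF2AK2, the kinase PKR activated by double-stranded RNA, was at -1.30 at 12 h and -1.41 at 24 h. PPP1R15A (GADD34), the phosphatase subunit that ATF4 signalling is known to induce, was at -0.20, -0.78, -1.14, -0.10 and 0.82, lowest at 6 h and highest at 24 h as ATF4 was. DNAJC3, a co-chaperone that inhibits the kinases, was at 1.22 at 6 h.

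ATF4's partners and related factors were mixed at 3 h, and most of those measured were at least 2-fold lower at 6 h. At least 2-fold lower were 4 of 11 at 3 h, 6 of 10 at 6 h and 0 of 11 at 12 h, against 2.95%, 10.1% and 7.74% of all genes. The list's median log2 difference was -0.61 at 3 h and -1.19 at 6 h, or -1.53 relative to all genes at 6 h. JDP2, a repressor of the AP-1 family, had log2 differences of -1.83 and -2.08 at 3 and 6 h, and NUPR1, a stress-induced chromatin protein, at -1.54 and -1.33, with 1.06 at 12 h. CEBPD was at -1.36 at 6 h. ATF2 was at -1.03 and -1.26 at 3 and 6 h, and its other probes were at -0.55 and -1.12 at 3 h and not measured at 6 h. CEBPG, a known partner of ATF4 at its sites, was on the other side of the control, at 0.54 and 1.19 at 3 and 6 h. So was ATF5, at 0.73 and 0.86, while CEBPA was at 0.80 at 3 h and level with the control at 6 h (0.01). ATF5 and CEBPA were named after their values were seen. CEBPB was at -2.07 and -2.10 at 3 and 6 h by one probe and at -0.80 and -0.21 by the other, so its probes disagree in size. At 12 and 24 h they also differed in sign, at -0.72 and -0.27 by the first and 1.34 and 0.69 by the other. ATF3, itself a target of ATF4, was between -0.60 and 0.69 by the probe measured on every array, while its other probe read 1.00, 1.54, 0.66 and 2.07 at 1, 3, 12 and 24 h.

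The 31 other ATF4 targets on the array leaned lower at 3 and 6 h and higher at 24 h. At least 2-fold lower were 6 of 29 at 3 h and 10 of 27 at 6 h, beside 2.95% and 10.1% of all genes. Higher were 1 and 0, beside 3.3% and 22.7%. At 24 h 7 of 30 were higher and 0 lower, beside 7.4% and 9.27%. SLC7A11, the cystine transporter, was at -2.73 at 6 h by the probe measured on every array. At 24 h its 3 probes disagreed, at 0.62, 1.05 and -1.88. CTH, which makes cysteine, was at -2.24 at 6 h, and SLC38A2, a neutral amino acid transporter, at -2.13. CCNG2, a cyclin of growth arrest, was at -3.00 and -2.48 at 3 and 6 h and at 0.00 at 24 h. DDIT4 (REDD1), an mTORC1 inhibitor, was at -1.45, -2.15, -0.78, 1.41 and 1.09 at 1, 3, 6, 12 and 24 h. SLC6A9, a glycine transporter, was at 1.84 at 1 h and 2.21 at 24 h, from a dim probe that was not well above background at 6 h. GDF15, a secreted stress hormone, was saturated on all 6 arrays, and FGF21, another, was well above background on 2.

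The other enzymes of serine and glycine showed no common direction. Of 12 measured, 1 was at least 2-fold higher and 3 lower at 24 h, beside 7.4% and 9.27% of all genes. At 6 h 1 was higher and 1 lower, beside 22.7% and 10.1%. GLDC, the decarboxylase of the glycine cleavage system, had log2 differences of -0.41, -0.76, -3.33, -2.57 and -2.14 at 1, 3, 6, 12 and 24 h. It was thus low on the 3 latest arrays, where PHGDH was near control or above. GCSH, its carrier protein, was at 1.25 and 1.18 at 6 and 12 h. PSPH, which follows PSAT1 and releases serine, had log2 differences of 1.10 (12 h) and -0.67 (24 h), and its 3 probes shared the sign at both times. AGXT was at -2.31 at 24 h by one probe and -0.68 by the other.

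Folate enzymes outside the members were near the background of all genes at 6 h. Of 19 measured, 6 were at least 2-fold higher and 0 lower, beside 22.7% and 10.1% of all genes, and 3 were higher with quantile or cyclic loess normalization. TYMS, which makes thymidylate, had log2 differences of 1.85 and 1.69 at 6 and 12 h, and MTHFS, which recycles a storage form of folate, of 1.77 and 1.65. MTHFD1, the cytosolic enzyme of the step MTHFD2 serves in mitochondria, was at 0.26, 0.39, 0.88, 0.89 and 0.43 at 1, 3, 6, 12 and 24 h. At 6 h, where MTHFD2 was lowest, MTHFD1 was above the control by little more than the SD between probes (0.79). The median of all measured genes was 0.34 there, and relative to that median MTHFD1 was inside the SD. MTHFD1L, the mitochondrial synthetase after MTHFD2, had log2 differences of -0.53 and 1.49 at 6 and 24 h. Its 4 probes split at 6 h, with values of -0.81, -0.53, 1.10 and 1.25. SHMT1, the cytosolic counterpart of SHMT2, was at -0.84 at 6 h by one probe and at 0.23 and 1.34 by the others, and MTHFD2L was well above background on 2 arrays only.

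**Figure D4:**
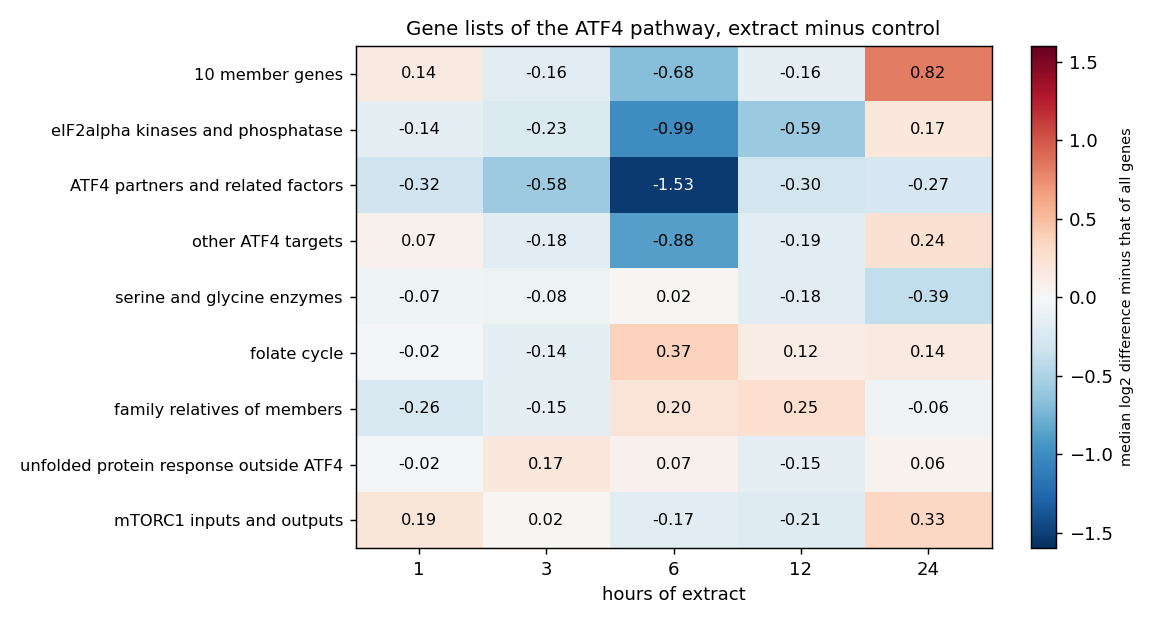
Median log2 difference from control of the 10 genes and of each pathway list, minus the median of all measured genes, at 1, 3, 6, 12 and 24 h of extract. The ATF4 partners are lowest at 6 h (-1.53) and the 10 genes are highest at 24 h (0.82).

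Related arms of the response were measured as a comparison. Of 16 genes of the unfolded protein response outside ATF4, 5 were at least 2-fold higher and 5 lower at 6 h, beside 22.7% and 10.1% of all genes. At 24 h 2 were higher and 4 lower, beside 7.4% and 9.27%. PDIA4, a disulphide isomerase, had log2 differences of -5.05, -4.54 and -3.62 at 6, 12 and 24 h, and SDF2L1, a partner of the chaperone BiP, of 3.51, 2.28 and 0.12. HSPA5, which encodes BiP, had log2 differences of -0.56 and 0.75 at 6 and 24 h by one probe and of 1.56 and -1.09 by the other, so its direction depends on the probe. Of the family relatives of the 10 genes, 1 of 6 was at least 2-fold higher at 6 h and 1 of 6 at 12 h, beside 22.7% and 13.0% of all genes. It was GGCT (1.95 at 6 h and 1.19 at 12 h), a gamma-glutamyl cyclotransferase like CHAC1. No relative was 2-fold apart at the other times. SESN1 was at -0.94 at 6 h and -0.07 at 24 h, where SESN2 was at 0.86. In the mTORC1 list 1 of 15 was at least 2-fold lower at 3 h (ULK1, at -1.48), beside 2.95% of all genes. Higher were 1 of 13 at 6 h and 1 of 14 at 12 h (RRAGC, at 1.26 and 1.06), beside 22.7% and 13.0%. In the trend test no gene of the 8 lists passed after adjustment with limma, and at an unadjusted p under 0.05 1 had a rising and 9 a falling slope, of 121 tested, beside 3.95% and 5.96% of all genes.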

How the data were processed

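RNA of HepG2 cells was read on 6 one-colour Agilent arrays, 1 per group, so their number limits the precision and p-values from the trend measure only scatter about a line. The control has no time in the labels, which name Cy5, whereas the scanner files hold green-channel columns. Intensity values are those of the deposited scanner files: the scanner software had corrected the processed signal for background, per the file headers, and the arrays were not normalized to each other. The sources used here give neither the software's version nor the probes' build. The authors' deposited intensity table (35646 probes) was used as an alternative; the control column had a median of 161.5, and the 1, 3, 6, 12 and 24 h columns had medians of 226, 391, 40, 86 and 297.5, and it matched the spot median minus local background median within 0.51 for at least 99.2% of probes per array, so it is linear and unscaled.

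Control spots (1639 per array) and flagged spots were left out, and 40895 of 41000 probes were kept. Spots of a probe were averaged as log2 processed signal, and the array's 75th percentile was subtracted. Other genes were named through the RefSeq gene table of GRCh38.p14, which gave 26789 probes 1 symbol and 14211 none. For differences, a gene is read by its brightest probe that was well above background and unsaturated on all 6 arrays, or else by its brightest probe. Measured means well above background and unsaturated on both arrays. The trend used limma 3.58.1 in R 4.3.3, with Benjamini-Hochberg adjustment over genes that at least 3 arrays read well above background, and was tested on simulated data. Other steps ran in Python 3.11.15. In each of the 8 pathway lists, named genes come from up to 6 measured genes with the largest log2 difference, and not all of these are named. SDS, EIF2S1, ERN1, XBP1, ATF6, SLC46A1 and MTR were among those left out. Genes next to a member in the pathway were also named (PSPH, SHMT1, MTHFD1, MTHFD1L, MTHFD2L, ATF3, PPP1R15A, CEBPB, HSPA5, DDIT4). GDF15 and FGF21 were added after their values were seen. The 10 genes, the lists and the tests were chosen with earlier results of these data known, and none of them is independent support.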

Additional observations from a re-analysis of the deposited data

How the results depend on the processing

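No paired analysis was possible because each group has 1 array and the labels give no replicate numbers. Of 432 values of single genes' differences under other scalings, probe choices and filters, 407 stayed within the SD between probes and 25 moved further, 18 of them with spike-in scaling. None that was at least 2-fold changed sign. Much of this agreement was fixed in advance. Without filters each gene kept its probe, so those 48 values repeat the main ones. Averaging the probes of a gene changed only values of ASNS and SHMT2. Scaling to the array median or to probes well above background on all arrays shifts every gene of an array alike, here by less than that SD. The count of the 10 genes at least 2-fold lower at 3 h was 0 with cyclic loess or spike-in scaling, against 1, and the count higher at 3 h was 2 with spike-in scaling, against 0. At 6 h 5 were lower with cyclic loess and 2 with the mean of all probes, against 3. At 24 h 5 were higher with scaling to the array median, 7 with spike-in scaling and 2 with the percentile of probes well above background on all arrays, against 3. With spike-in scaling the median of all genes was itself 1.05 at 3 h and 1.26 at 24 h, so most genes were at least 2-fold higher there. With scaling to the array median it was 0.22 at 24 h, against 0.03. The share of all genes past 2-fold under each alternative is not given here. Of 1040 values of the pathway lists' counts and medians under these alternatives, 157 moved by more than 1.5 times or the SD between probes, 49 of them with spike-in scaling. Partners at least 2-fold lower at 3 h numbered 3 to 5 over the other settings and 0 with spike-in scaling, against 4, and other targets higher at 24 h 5 to 9 and 25, against 7. The median difference of the 10 genes with spike-in scaling was 0.88 at 3 h and 2.08 at 24 h, against -0.20 and 0.85. The spike-in shift is the same for every gene of an array by construction. For the other changes the cause was not tested.

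In the trend, 1348 genes had an unadjusted p under 0.05, against 2565 with spike-in scaling, 791 with a quadratic term added and 3335 without the 6 h and 12 h arrays. Leaving out 1 array at a time gave 653 (without the control) to 2829 (without 24 h), and 724 without 1 h. Without the 6 h and 12 h arrays 639 of 13611 genes passed limma's adjusted threshold, against 0, and 3335 of 13611 the unadjusted one. Among the 10 genes 1 passed the adjusted threshold (DDIT3), against 0. The unadjusted one was passed by 3 (DDIT3 rising, ATF4 and TRIB3 falling), against 1, a count near the share of all genes. Without the 24 h array none of the 10 (0) passed unadjusted, and without any other single array 1 did. The fitted changes of ATF4 and TRIB3 from their saturated probes were -1.02 and -1.04 without the 6 h and 12 h arrays, against 0.22 and 0.10. On the 4 arrays that remain both probes were saturated, so these values show the scaling and not the RNA. Saturation and the dim arrays at 6 and 12 h limit the readings of ATF4, TRIB3, ASNS, PSAT1 and SHMT2.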
